A study of Mus musculus with 18 samples.

Results

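The 47 genes described here encode proteins that take up, activate and oxidise fatty acids, or that build the peroxisome, among 55421 genes in the tables. They were chosen by gene name, and all 47 were found. All 47 also passed the filter on low counts, which left 18754 genes for testing. By role they comprise 8 genes of uptake, binding and activation, 17 of mitochondrial oxidation, 8 of peroxisomal oxidation, 3 whose product works in both organelles or whose compartment is uncertain, and 11 Pex genes of peroxisome assembly.

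Transcripts were measured by polyA RNA-seq in mouse kidney proximal tubule cells after 1, 2, 4, 7 and 14 days in primary culture and in the freshly isolated tubules of day 0, each day being represented by 3 libraries, A, B and C. Every group came from untreated wild type female mice of strain C57BL/6 (C57BL/6J in the growth protocol), 6 weeks of age. Tubules were freed from the kidney with collagenase, enriched on Percoll, seeded on plastic and kept for up to 14 days without being passaged. The labels call the replicates biological without naming animals, pools or cultures. The p-values here therefore speak to the spread among the libraries sequenced, and that spread may be technical.

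Fatty acids enter the cell, are carried by binding proteins and are activated to acyl-CoA by synthetases. Long-chain acyl-CoA crosses into mitochondria through the carnitine shuttle and is shortened there by a cycle of dehydrogenation, hydration, a further dehydrogenation and thiolysis. Peroxisomes run a parallel cycle, started by acyl-CoA oxidases, on very long-chain and branched acyl chains, and Pex proteins import its enzymes and membrane proteins. The proximal tubule is rich in both organelles and draws much of its ATP from fatty acids.

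Each library held between 23799559 and 37579097 estimated counts. The 10 proximal tubule markers summed to 14239.8 to 14916 TPM (transcripts-per-million) on day 0, 10.7 to 16.7 TPM on day 4 and 5.42 to 11.4 TPM on day 14, when Slc22a8 alone had 0 counts. On the same days the 5 thick limb markers summed to 1234 to 1606, 6.75 to 11.4 and 6.92 to 15.02 TPM and the 5 distal convoluted tubule markers to 671 to 875, 3.97 to 6.61 and 11.7 to 16.5 TPM (Pvalb at 0 counts on day 14). The 7 collecting duct markers summed to 551 to 791, 43.5 to 53.5 and 84.6 to 105 TPM (Slc4a1 at 0 counts on day 14). On days 0, 1, 7 and 14 the 7 endothelium markers summed to 80.9 to 87.8, 177 to 283, 40.9 to 54.6 and 24.2 to 27.8 TPM. On those days the 6 markers of fibroblasts and pericytes summed to 10.3 to 14.3, 6.57 to 12.7, 29.3 to 31.5 and 45.4 to 59.9 TPM, and the 7 of macrophages to 17.2 to 49.2, 50.9 to 59.2, 52.8 to 89.4 and 29.8 to 44.5 TPM. Adipocyte markers stayed at or under 0.52 TPM in every library, and all 5 red blood cell markers had 0 counts on day 4, against 164 to 259 TPM on day 0. The part of these shifts in the results below was not tested, and fewer cells of a type cannot be told apart from less RNA per cell in such bulk samples.

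The fatty acid oxidation genes were lower at every day of culture than at isolation, with few exceptions. On day 1 against day 0, 45 of the 47 genes were lower and 0 higher by edgeR's quasi-likelihood test at a Benjamini-Hochberg adjusted p under 0.05, where 37.1% of all 18754 genes were lower and 33.1% higher. The counts were 46 lower and 1 higher on day 2 (all genes 35.3% and 38.9%), 46 and 1 on day 4 (36.8% and 38.1%), 46 and 1 on day 7 (32.1% and 37.6%), and 45 and 1 on day 14 (32.1% and 37.4%). Acsl4 was the 1 gene higher from day 2 on, and Acox2 the 1 gene not called on day 14. All 47 genes differed among the 6 days by the F test of the day coefficients (largest adjusted p 2.0e-06), as did 89.8% of all genes tested.

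By role, the median falls were larger for the oxidation genes of both organelles than for the Pex genes. For mitochondrial oxidation the median log2 fold change was -1.93 on day 1, -2.85 on day 4 and -2.45 on day 14 against day 0. The peroxisomal oxidation medians were -2.0, -3.55 and -2.29, and the Pex medians -0.83, -1.43 and -1.19, for the same days. Over all genes tested these medians were -0.01, 0.08 and 0.16. Differences between the roles were not tested. With library sizes alone the median of all genes shifted by 0.30, 0.51, 0.49, 0.50 and 0.56 (log2) on days 1, 2, 4, 7 and 14 against day 0, and changes are given relative to TMM scaling.

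**Figure D1:**
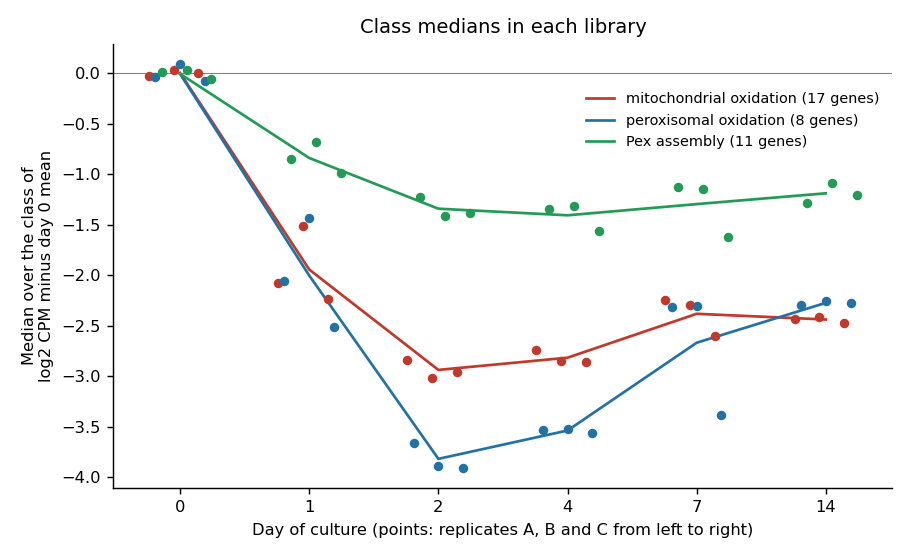
Median over each role of the log2 CPM (counts-per-million) of its genes less their day 0 mean, by day of culture (classes in the plot are the roles). Points are libraries and lines join the means of 3 libraries. Mitochondrial and peroxisomal medians lie below the Pex median from day 1 on, and 1 library of day 7 (replicate C) lies lowest of its day in all 3 roles. Under library sizes alone or TPM, Pex2 and Pex14 turn to higher on day 14.

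As levels per transcript length, the 17 mitochondrial genes summed to 5466 ± 52.0 TPM on day 0, 1119 ± 38.8 TPM on day 4 and 1680.5 ± 27.1 TPM on day 14 (SD, n = 3 each). The 8 peroxisomal genes summed to 2397 ± 121, 345 ± 2.61 and 590.3 ± 14.8 TPM on those days. The 11 Pex genes summed to 501 ± 15.9, 312 ± 8.17 and 430.0 ± 4.70 TPM. The 8 genes of uptake, binding and activation had 4468 ± 515 TPM on day 0, 103 ± 9.02 TPM on day 4 and 101 ± 7.03 TPM on day 14. Their sum includes Acsl4, the 1 of the 8 called higher on days 4 and 14, at 5.53 to 5.93 times the TPM of Acsl1 on day 4. Abundant single genes weigh most in such sums, as Slc27a2 among these 8 and Scp2 among the peroxisomal genes on day 0. In each of these sums the libraries of days 4 and 14 lay below all libraries of day 0.

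The genes of uptake, binding and activation include Acsm1, Acsm2 and Slc27a2, which had the 3 largest fitted falls on day 4 among the 46 genes other than Fabp1, and none of the 8 was called higher on day 14 than on day 4. Slc27a2, a very long-chain fatty acid transporter and acyl-CoA synthetase, was the most abundant of them on day 0 at 2294 TPM. Its libraries held 4805, 5307 and 3859 CPM on day 0, 1134, 1903 and 763 CPM on day 1 and 128, 52.7 and 73.8 CPM on day 2. Slc27a2 then had 4.08, 1.95 and 3.38 CPM on day 4, 1.68, 0.850 and 3.71 CPM on day 7 and 3.39, 6.16 and 6.45 CPM on day 14. Each day's libraries lay below those of the day before through day 4, and those of days 4, 7 and 14 overlapped. The log2 fold change was -10.53 ± 0.62 (SE) on day 4 against day 0 (adjusted p = 2.9e-10), and 0.76 ± 0.48 on day 14 against day 4 (adjusted p = 0.197). Exons of Slc27a2 overlap the antisense Gm26697 over 11.2% of their bases, and the strand used in counting is not given in the sources used here.

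Acsm1 and Acsm2 encode mitochondrial synthetases for medium-chain acids. Acsm1 had 344, 425 and 329 CPM on day 0, 68.0, 127 and 56.6 CPM on day 1 and 10.9, 6.31 and 7.68 CPM on day 2. Acsm1 then had 0.0633, 0.0975 and 0.0704 CPM on day 4, 0.0301, 0.0354 and 0.113 CPM on day 7 and 0.124, 0.0712 and 0 CPM on day 14, which is 7, 5 and 6 counts over the 3 libraries of each day. Acsm2 had 3876, 4434 and 3473 CPM on day 0, 941, 1332 and 651 CPM on day 1 and 210.4, 97.6 and 129 CPM on day 2. Acsm2 then had 3.26, 1.82 and 2.47 CPM on day 4, 0.0601, 0.0354 and 0.263 CPM on day 7 and 0.466, 0.214 and 0.652 CPM on day 14. Acsm1 was close to the counting limit from day 4 and Acsm2 from day 7, and no later library overlapped those of day 0. The log2 fold change of day 4 against day 0 was -12.13 ± 0.48 for Acsm1 and -10.60 ± 0.45 for Acsm2 (adjusted p = 5.3e-12 and 1.1e-11). The value for Acsm1 rests on those 7 counts and was -7.47 at its smallest over 28 alternatives. Acsm2 fell further on day 14 against day 4, by 2.47 on the log2 scale (adjusted p = 5.0e-04), a call lost by limma on log2(TPM + 1) without the filter (-0.88, adjusted p = 0.0728).

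Fabp1 and Fabp3 encode cytosolic fatty acid binding proteins. Fabp1 had 5.59, 7.64 and 8.47 CPM on day 0, 0.708, 1.84 and 0.943 CPM on day 1 and 0, 0 and 0.135 CPM on day 2. A single count remained over the 3 libraries of day 4 and 0 counts on days 7 and 14, against 495 counts on day 0. Scaled for depth, Fabp1 was 657-fold lower on day 4 than on day 0 (exact 95% interval 117 to 26006, counting error only), and at least 213-fold lower on day 7 and 219-fold lower on day 14, where 0 counts were replaced by 3 counts over the 3 libraries. Fabp3 averaged 1.75 ± 0.528 CPM on day 4 and 169 ± 24.4 CPM on day 0 (SD, n = 3 each). Cd36, a membrane fatty acid translocase, averaged 0.189 ± 0.0562 CPM on day 14 and 22.0 ± 4.47 CPM on day 0. Its call on day 1 (log2 fold change -1.63 ± 0.63, adjusted p = 0.0305) was lost in 6 of 28 alternatives, 4 of them leaving out day 0 replicate A or C or day 1 replicate A or C, with adjusted p up to 0.106.

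The long-chain synthetases Acsl1 and Acsl4 moved in opposite directions. Acsl1, a synthetase of cells that oxidise or store fat, had 726, 728 and 816 CPM on day 0, 186, 255 and 149.7 CPM on day 1 and 61.3, 41.1 and 52.4 CPM on day 2. Acsl1 then had 33.0, 28.3 and 31.8 CPM on day 4, 34.9, 32.7 and 29.97 CPM on day 7 and 32.0, 33.2 and 29.0 CPM on day 14. Acsl4, which prefers arachidonate and other polyunsaturated acids, had 101, 106 and 101 CPM on day 0, 97.2, 106 and 95.04 CPM on day 1 and 119.9, 154 and 138 CPM on day 2. Acsl4 then had 272, 246 and 262 CPM on day 4, 276, 268 and 271 CPM on day 7 and 191, 233 and 216 CPM on day 14. Acsl1 lay lower in all libraries of days 1 to 14 than on day 0, while the Acsl4 libraries of day 1 overlapped those of day 0 and every later library lay above them.

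The log2 fold change of Acsl1 was -4.61 ± 0.19 (adjusted p = 6.6e-12) and of Acsl4 1.34 ± 0.09 (adjusted p = 1.7e-09) on day 4 against day 0. For Acsl4 on day 1 the value was -0.04 (adjusted p = 0.678) and it turned to 0.26 with library sizes alone, 0.14 in a fit of the 2 days alone and 0.30 by limma on log2(TPM + 1). Acsl4 was then lower on day 14 than on day 4, by 0.29 on the log2 scale (adjusted p = 0.0143), a call lost without day 4 replicate A (0.0569) and by limma on log2(TPM + 1) (0.396). Per transcript length, the ratio of Acsl4 to Acsl1 was 5.80, 5.53 and 5.93 in the libraries of day 4 and 4.39, 5.07 and 5.57 in those of day 14, against 0.104, 0.1097 and 0.0919 on day 0. Neither day overlapped day 0, and the two-sided exact permutation test gave p = 0.1 for each, the smallest that 3 against 3 libraries allow.

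**Figure D2:**
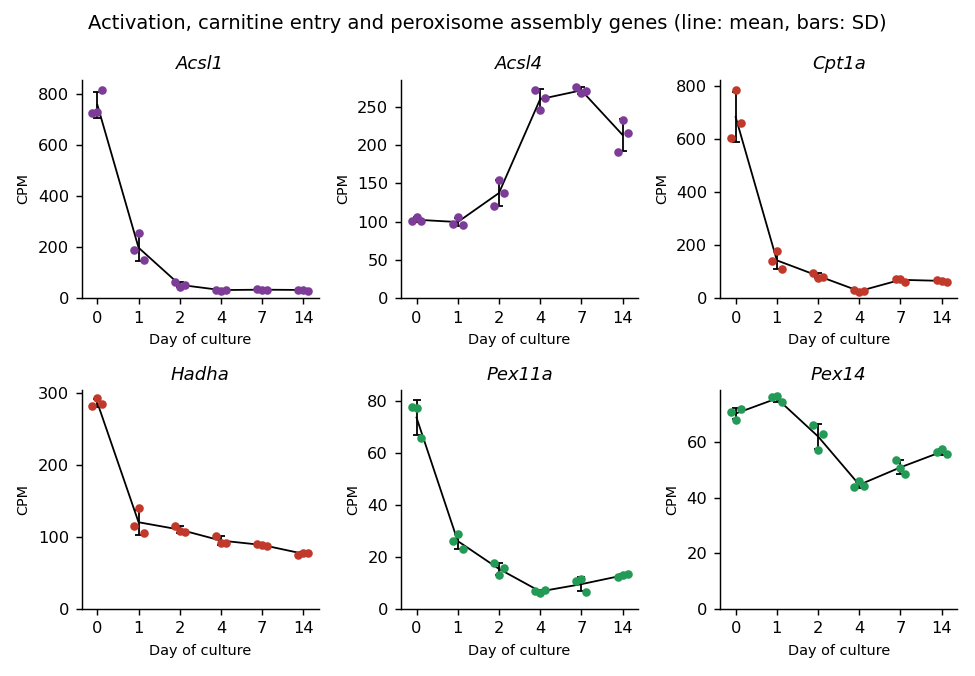
CPM in each library by day of culture for Acsl1, Acsl4, Cpt1a, Hadha, Pex11a and Pex14. Points are libraries, lines join the day means and bars are SD (n = 3). Acsl4 lies above its day 0 libraries from day 2, Acsl1, Cpt1a, Hadha and Pex11a lie below theirs from day 1, and Pex14 is lowest on day 4 (its day 14 libraries turn higher than day 0 under library sizes alone or TPM).

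The sequences around the RefSeq starts of these genes differed in CpG content. For each gene found in RefSeq (GRCm38.p6; 40 of the 47 genes, with 46 promoters), the window of 250 bases before to 50 bases after the start was read. Acsl4 is shown because it rose. Acsm1 and Slc27a2 had the lowest levels on day 4 relative to day 0 among genes of low and of high CpG content. The 150 bases before the RefSeq start of each are given 5′ to 3′ on the gene's strand, with each CpG in capitals (chrX:142390536-142390685, minus strand for Acsl4, chr7:119617662-119617811, plus strand for Acsm1 and chr2:126552874-126553023, plus strand for Slc27a2).
Acsl4: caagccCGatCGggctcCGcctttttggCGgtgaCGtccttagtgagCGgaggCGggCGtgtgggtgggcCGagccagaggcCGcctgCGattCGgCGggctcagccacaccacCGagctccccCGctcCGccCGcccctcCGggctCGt
Acsm1: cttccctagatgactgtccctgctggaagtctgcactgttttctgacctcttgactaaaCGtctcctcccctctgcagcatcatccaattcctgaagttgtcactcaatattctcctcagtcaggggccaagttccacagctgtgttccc
Slc27a2: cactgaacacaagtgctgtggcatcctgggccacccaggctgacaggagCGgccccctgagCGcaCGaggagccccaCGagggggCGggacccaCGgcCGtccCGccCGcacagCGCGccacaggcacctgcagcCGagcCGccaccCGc
These stretches hold 19, 1 and 14 CpG dinucleotides. In the GENCODE vM21 annotation Acsm1 begins at chr7:119607026 and Slc27a2 at chr2:126552407. Their stretches therefore lie inside the gene in that annotation, while that of Acsl4 lies directly before its start in both.

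Across the 39 genes with a promoter other than Fabp1, the CpG number of the window (the highest of a gene) and the log2 fold change of day 4 against day 0 had a Spearman rho of 0.432 and a Pearson r of 0.469. The same was not computed over all genes. The median CpG number was 7 over all promoters, 16.5 over the 46 here and 4 over the 10 of uptake, binding and activation. That role also had the lowest median log2 fold change on day 4 (-7.73), so CpG number and role are not separated here. This is a description across genes that share the same libraries, and genes are not independent replicates. The 5 genes with at most 5 CpG (a limit set after seeing the values) ranged from -12.13 to -3.37, with a median of -8.02, and the other 34 from -10.53 to 1.34, with a median of -2.48. Slc27a2, with 25 CpG, and Acsl4, with 33, lie at the bottom and the top of the CpG-rich genes.

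**Figure D3:**
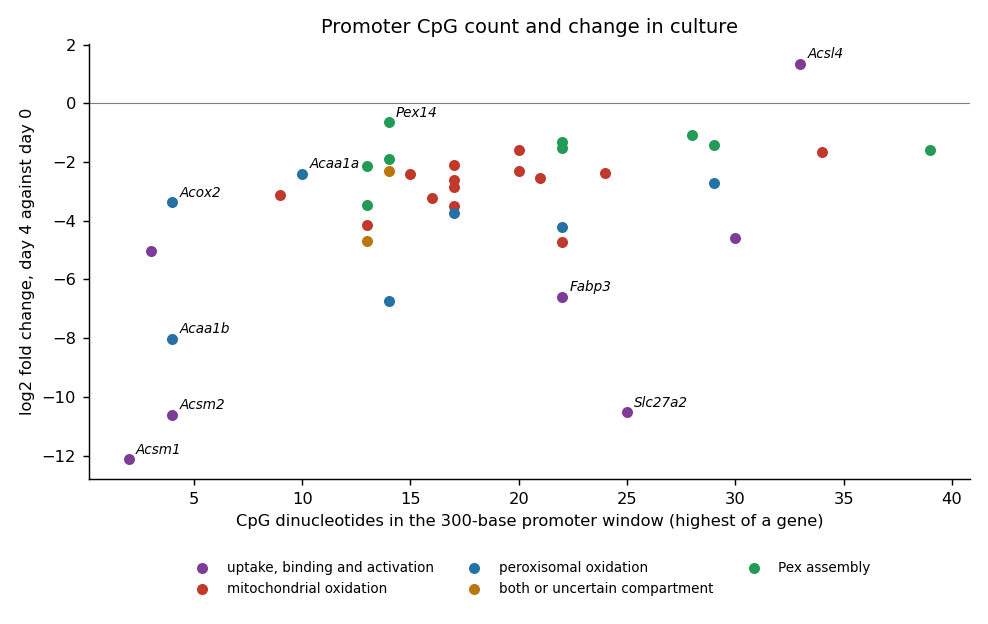
CpG dinucleotides in the promoter window (highest of a gene, x axis) and log2 fold change of day 4 against day 0 (y axis) for 39 genes, coloured by role. Acsm1, Acsm2 and Acaa1b lie at low CpG numbers and large falls, and Cd36 (-5.04) and Acox2 (-3.37) at low CpG numbers and smaller falls. Slc27a2 lies at 25 CpG and a fall of the same order as Acsm1 and Acsm2. Ehhadh (14 CpG, -6.73) and Fabp3 (22 CpG, -6.59) had the next largest falls of the CpG-rich genes. Acsl4 alone lies above 0.

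Motifs of nuclear factors linked to this pathway were rare in the windows. A DR1 element, the binding element of PPAR and RXR, was searched on both strands as a direct repeat of AGGNCA with 1 base between the copies. It was found in 0.381% of 32851 promoters and, of the 46 promoters here, in that of Fabp1. The NRF1 element GCGCATGCG was in 1.75% of all promoters and in 2 of the 46, those of Acadm and Etfdh, whose copies on both strands overlap in Etfdh. The ERR element TCAAGGTCA and the HNF4 element CAAAGTCCA, in 0.423% and 0.475% of all promoters, had 0 matches. The copies in Fabp1 and Acadm lie on the strand opposite to the gene, so the printed letters are their complement read backwards. The windows around these matches are shown on the gene's strand, with the motif in capitals (chr6:71199772-71199864, plus strand for Fabp1, chr3:153944754-153944842, minus strand for Acadm and chr3:79628847-79628935, minus strand for Etfdh).
Fabp1: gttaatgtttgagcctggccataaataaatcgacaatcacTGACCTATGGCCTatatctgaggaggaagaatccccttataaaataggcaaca
Acadm: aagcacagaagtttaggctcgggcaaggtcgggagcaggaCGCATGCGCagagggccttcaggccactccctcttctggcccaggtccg
Etfdh: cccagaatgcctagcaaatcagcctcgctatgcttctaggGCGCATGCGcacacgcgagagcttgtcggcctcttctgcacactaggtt
A match is a run of letters in a window, and no match says only that these letters are not in it. The windows follow RefSeq starts. In the GENCODE vM21 annotation Etfdh begins at chr3:79629500, so its window lies inside the gene there. Fabp1 begins at chr6:71199827 there, so its window reaches into the gene.

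Mitochondrial oxidation genes fell together, and 9 of the 17 were higher on day 14 than on day 4, as were 28.6% of all genes. That count was 14 by limma on log2(TPM + 1) and in a fit of the 2 days alone. The shares of all genes called higher in those settings are not given here, so the larger count is no result about the 17 genes alone. All 17 were lower on day 1 against day 0, with log2 fold changes of -2.73 to -1.16, and all 17 on day 4 (-4.72 to -1.60) and 17 on day 14 (-3.72 to -1.17). No library of days 1 to 14 reached the day 0 libraries for any of the 17. The share of all genes that separated in this way is not given here. Of all genes, 37.1%, 36.8% and 32.1% were called lower on days 1, 4 and 14. The counts of the 17 genes against day 0 were the same with library sizes alone and by limma on log2(TPM + 1). Transcripts of the mitochondrial genome itself, from 37 genes, held 4.92%, 4.13%, 1.69%, 0.466%, 0.807% and 0.932% of all counts on days 0, 1, 2, 4, 7 and 14, and their part in these results was not tested.

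Cpt1a, the carnitine palmitoyltransferase of the outer membrane that controls entry of long-chain acyl groups, had the largest fall of the 17 on day 4. Its libraries held 603, 786 and 662 CPM on day 0, 138, 178 and 109.9 CPM on day 1 and 94.8, 76.9 and 78.9 CPM on day 2. Cpt1a then had 30.7, 21.3 and 25.7 CPM on day 4, 73.0, 72.9 and 60.1 CPM on day 7 and 69.1, 63.6 and 61.2 CPM on day 14. The day 4 libraries lay below those of every other day. In log2 terms the change was -4.72 ± 0.19 on day 4 against day 0 (adjusted p = 6.7e-12) and 1.32 ± 0.17 on day 14 against day 4 (adjusted p = 1.3e-05), the largest rise of the role. Cpt2, its partner at the inner membrane, had 229.7, 288 and 259 CPM on day 0, 34.2, 48.3 and 34.3 CPM on day 1 and 36.9, 30.5 and 28.7 CPM on day 2. Cpt2 then had 36.7, 35.8 and 35.4 CPM on day 4, 47.4, 44.7 and 42.4 CPM on day 7 and 40.6, 43.8 and 46.3 CPM on day 14. Most of its fall was present on day 1 (log2 fold change -2.73 ± 0.13), and day 14 against day 4 did not pass the test (0.28 ± 0.13, adjusted p = 0.0830), though it was called with library sizes alone (0.34, 0.0106), in a fit of the 2 days alone (0.0122), by limma on log2(TPM + 1) (0.44, 0.0159) and without day 1 replicate B (0.0312).

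The acyl-CoA dehydrogenases remove the first hydrogens, each from its own range of chain lengths. Acadvl, for very long chains, averaged 554 ± 20.4 CPM on day 0, 63.5 ± 1.45 on day 4 and 118 ± 1.75 on day 14. Acadl, for long chains, averaged 458 ± 12.9, 146 ± 5.02 and 203 ± 2.51 CPM on those days, and Acadm, for medium chains, 832 ± 4.56, 46.8 ± 3.09 and 69.2 ± 1.71 CPM. Acads, for short chains, was lowest on day 2 at 25.3 ± 0.737 CPM and stood at 59.3 ± 4.296 CPM on day 14, against 204 ± 12.9 on day 0. Of these 4, Acadl kept the largest share of its day 0 CPM on day 14, 44.4%, and Acadm the smallest, 8.31%. Acadvl and Acadl were higher on day 14 than on day 4, by 0.90 and 0.48 on the log2 scale, and Acadm and Acads did not pass the test (adjusted p = 0.0508 and 0.0980). Acadvl shares 42.9% of its exon bases with the antisense gene Dvl2.

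Hadha and Hadhb encode the trifunctional protein, which completes the cycle for long chains. Hadha had 282, 293 and 285 CPM on day 0, 116, 139.9 and 106 CPM on day 1 and 116, 108 and 106 CPM on day 2. Hadha then had 102, 91.2 and 91.7 CPM on day 4, 90.0, 88.7 and 87.6 CPM on day 7 and 74.3, 77.6 and 77.5 CPM on day 14. Its mean was lower on each later day, and all day 14 libraries lay below those of day 4 (log2 fold change -0.31 ± 0.08, adjusted p = 0.00600). It was the 1 mitochondrial gene called lower in that comparison, and by limma on log2(TPM + 1) it was not called. The Hadhb libraries of those days overlapped, with a mean of 116 ± 5.05 CPM on day 14, against 121 ± 5.45 CPM on day 4.

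Etfb, a subunit of the flavoprotein that passes electrons from the dehydrogenases to the respiratory chain, was the most abundant of the 17 per length on day 0, at 849.6 TPM. Its libraries held 522, 550.0 and 574 CPM on day 0, 126, 177 and 110.4 CPM on day 1 and 73.0, 67.7 and 70.7 CPM on day 2. Etfb then had 60.4, 59.0 and 57.1 CPM on day 4, 85.0, 79.7 and 65.1 CPM on day 7 and 86.1, 87.1 and 84.6 CPM on day 14. All later libraries lay below day 0, and those of day 14 above day 4. The log2 fold change was -3.22 ± 0.14 on day 4 against day 0 (adjusted p = 1.6e-11) and 0.55 ± 0.13 on day 14 against day 4 (adjusted p = 0.00279). Etfb shares 53.0% of its exon bases with Gm45233 on the same strand, so reads could be split between them. Its partner Etfa had log2 fold changes of -2.54 ± 0.13 and -0.21 ± 0.12 in these comparisons, with no call in the second (adjusted p = 0.181), and Etfdh, the dehydrogenase of the flavoprotein, had -2.60 ± 0.11 and 0.40 ± 0.10, with a call in both.

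The remaining enzymes are the hydratase Echs1, the dehydrogenase Hadh, the isomerase Eci1 and reductase Decr1 for unsaturated chains, and the thiolases Acaa2 and Acat1. Their log2 fold changes of day 4 against day 0 ranged from -4.07 (Acaa2) to -2.31 (Echs1). Eci1 rose on day 14 against day 4 by 1.01, Acaa2 by 0.91, Decr1 by 0.71 and Echs1 by 0.49, while Hadh (0.29) and Acat1 (0.26) did not pass the test. The call of Echs1 (adjusted p = 0.0313) was lost without any 1 library of days 4 or 14 (adjusted p up to 0.0781 over 28 alternatives).

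The 8 peroxisomal oxidation genes all fell, and they ranged from Acaa1b, which stayed low to day 14, to Acox2, whose day 14 libraries came close to those of day 0. All 8 were lower on day 4 against day 0 (36.8% of all genes), with log2 fold changes of -8.02 to -1.55. On day 14 against day 0, 7 of 8 were lower (32.1% of all genes). On day 14 against day 4, 6 of 8 were higher, where 28.6% of all genes were.

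Acox2, an oxidase of branched chains and bile acid intermediates, returned furthest. Its libraries held 135, 99.8 and 97.8 CPM on day 0, 29.0, 28.8 and 19.4 CPM on day 1 and 7.74, 4.82 and 6.10 CPM on day 2. Acox2 then had 10.7, 11.0 and 10.5 CPM on day 4, 27.3, 29.6 and 6.23 CPM on day 7 and 70.6, 81.4 and 78.8 CPM on day 14. Replicate C of day 7 lay below the day 4 libraries, replicates A and B above them, and the day 14 libraries above all of days 1 to 7. In log2 terms the change was 2.84 ± 0.39 on day 14 against day 4 (adjusted p = 2.3e-05) and 1.87 ± 0.37 on day 14 against day 7 (adjusted p = 0.00465), where it was the 1 gene of the 47 called higher (all genes 5.07%). Day 14 against day 0 gave -0.53 ± 0.36, with adjusted p = 0.2002, although the libraries did not overlap. That value turned to 0.033 with library sizes alone and 0.092 by limma on log2(TPM + 1). Acox2 was called lower than on day 0 without day 7 replicate C (-0.52, adjusted p = 0.00642) and in a fit of the 2 days alone (-0.64, adjusted p = 7.4e-04). Acox3, a second branched-chain oxidase, averaged 258 ± 67.4 CPM on day 0, 14.0 ± 0.971 on day 4 and 43.4 ± 1.63 on day 14.

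Ehhadh and Hsd17b4 encode the bifunctional enzymes of the next steps, with opposite stereochemistry. Ehhadh averaged 561 ± 27.0 CPM on day 0, 5.27 ± 0.995 on day 4 and 8.06 ± 1.11 on day 14, and day 14 against day 4 did not pass the test (adjusted p = 0.161). Hsd17b4 had 438, 469 and 413 CPM on day 0, 157, 206 and 143 CPM on day 1 and 116, 120.4 and 111 CPM on day 2. Hsd17b4 then had 150.5, 152 and 150.1 CPM on day 4, 253, 238.7 and 166 CPM on day 7 and 205, 215 and 215 CPM on day 14. Its fall was the smallest of the role on day 4, with a log2 fold change of -1.55 ± 0.14 against -6.73 ± 0.41 for Ehhadh. Hsd17b4 rose by 0.49 on day 14 against day 4 (adjusted p = 0.00751).

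**Figure D4:**
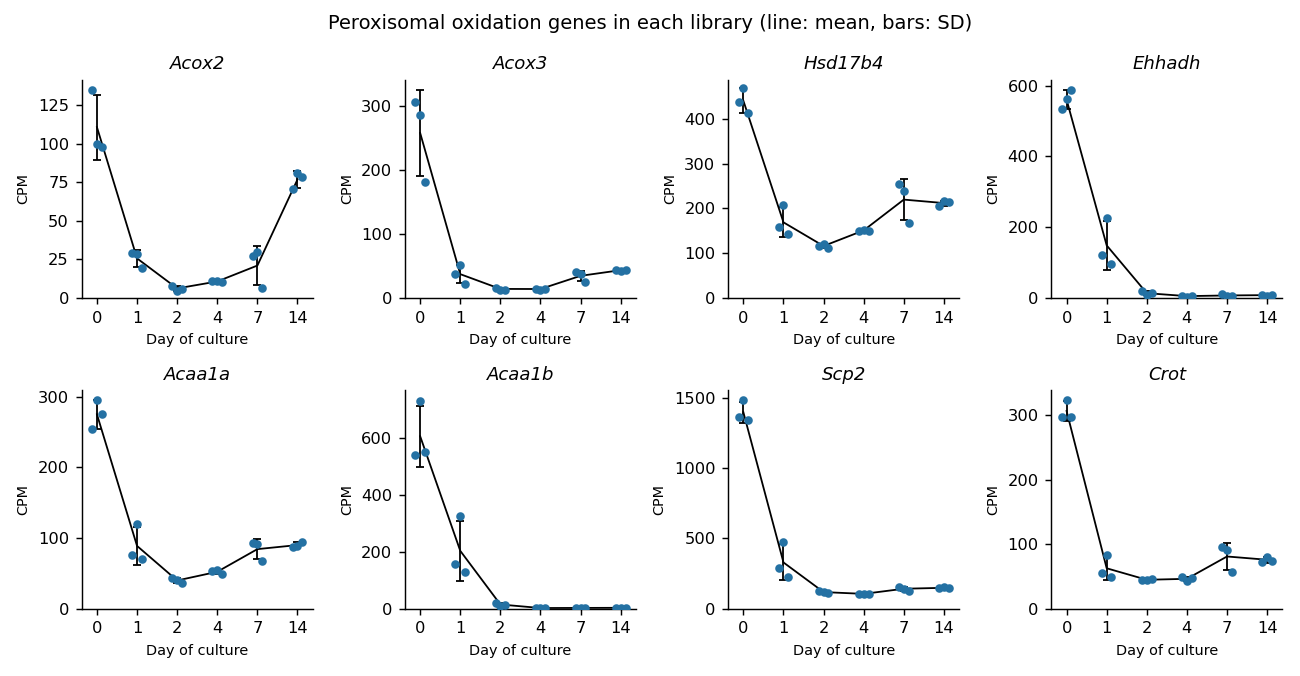
CPM in each library by day of culture for the 8 peroxisomal oxidation genes. Points are libraries, lines join the day means and bars are SD (n = 3). Acox2 climbs back by day 14 (its day 14 value against day 0 turns to slightly higher under library sizes alone or TPM), while Ehhadh and Acaa1b stay near 0 from day 4.

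The thiolases Acaa1a and Acaa1b, which close the peroxisomal cycle, parted between days 1 and 4. Acaa1a had 254, 295 and 275 CPM on day 0, 76.1, 120.0 and 70.3 CPM on day 1 and 43.3, 40.7 and 35.7 CPM on day 2. Acaa1a then had 52.6, 55.2 and 48.8 CPM on day 4, 93.3, 91.8 and 67.6 CPM on day 7 and 87.2, 88.6 and 94.3 CPM on day 14. Acaa1b had 538, 729.6 and 549 CPM on day 0, 158, 324 and 127 CPM on day 1 and 19.5, 10.5 and 14.3 CPM on day 2. Acaa1b then had 2.21, 2.47 and 2.29 CPM on day 4, 2.43, 2.34 and 3.34 CPM on day 7 and 3.70, 2.81 and 2.64 CPM on day 14. The fall on day 1 was of like size in both, with log2 fold changes of -1.63 ± 0.17 and -1.58 ± 0.28. On day 4 against day 0 the values were -2.40 ± 0.17 and -8.02 ± 0.39 (adjusted p = 3.2e-09 and 3.6e-11). Acaa1a rose on day 14 against day 4, by 0.79 (adjusted p = 9.8e-04), and Acaa1b did not pass the test (0.39, adjusted p = 0.373).

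Per transcript length, the ratio of Acaa1b to Acaa1a was 0.0511, 0.0486 and 0.0489 in the libraries of day 4 and 0.0450, 0.0351 and 0.0303 in those of day 14, against 2.25, 2.61 and 2.09 on day 0. The days did not overlap with day 0, and the two-sided exact permutation test gave p = 0.1, the smallest possible, for each. Day 1 libraries, at 2.17, 2.80 and 1.92, overlapped those of day 0. The transcripts of the pair share 583 windows of 50 bases (26.7% of those of Acaa1a and 35.5% of those of Acaa1b), so reads could be split between them, and no other pair of the 47 genes shares any. Both genes lie on chromosome 9, and the 150 bases before their starts are shown for comparison, with each CpG in capitals (chr9:119341144-119341293, plus strand for Acaa1a and chr9:119157094-119157243, minus strand for Acaa1b).
Acaa1a: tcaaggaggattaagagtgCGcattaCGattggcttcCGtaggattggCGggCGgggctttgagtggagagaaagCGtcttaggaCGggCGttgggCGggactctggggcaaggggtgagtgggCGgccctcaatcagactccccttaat
Acaa1b: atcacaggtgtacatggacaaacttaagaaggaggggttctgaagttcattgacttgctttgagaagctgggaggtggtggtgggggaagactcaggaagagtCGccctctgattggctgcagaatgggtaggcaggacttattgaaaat
These stretches hold 10 CpG in Acaa1a and 1 in Acaa1b. In the GENCODE vM21 annotation Acaa1a begins at chr9:119339676, so its stretch lies inside the gene there. That of Acaa1b lies directly before its start in both annotations.

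Scp2, which encodes a thiolase for branched chains and a sterol carrier protein, was the most abundant of the role per length on day 0, at 1223 TPM. Its libraries held 1364, 1483 and 1344 CPM on day 0, 291, 471 and 224 CPM on day 1 and 123, 120.0 and 111 CPM on day 2. Scp2 then had 106, 105 and 105 CPM on day 4, 156, 142 and 127 CPM on day 7 and 145, 151 and 149 CPM on day 14. All later libraries lay below day 0. The log2 fold change was -3.73 ± 0.20 on day 4 against day 0 (adjusted p = 9.9e-11). The rise on day 14 against day 4 (0.49 ± 0.18, adjusted p = 0.0298) was lost without any 1 library of days 4 or 14 (adjusted p up to 0.0768 over 28 alternatives). It was also lost with DESeq2 size factors (adjusted p = 0.0515). Crot, which turns shortened chains into carnitine esters for export, averaged 306 ± 15.4 CPM on day 0, 46.3 ± 3.52 on day 4 and 75.8 ± 4.296 on day 14.

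Of the genes whose product works in both organelles or whose compartment is uncertain, Acad11 had the largest fall. Acad11, an acyl-CoA dehydrogenase, had 462, 497 and 419 CPM on day 0, 96.0, 139 and 73.5 CPM on day 1 and 31.3, 25.5 and 27.3 CPM on day 2. Acad11 then had 18.8, 17.2 and 16.6 CPM on day 4, 47.9, 42.5 and 27.8 CPM on day 7 and 50.8, 46.9 and 52.3 CPM on day 14. Eci2, an enoyl-CoA isomerase, had 110.4, 125 and 109.5 CPM on day 0, 34.4, 54.2 and 32.4 CPM on day 1 and 27.1, 22.0 and 23.4 CPM on day 2. Eci2 then had 23.7, 23.98 and 22.4 CPM on day 4, 33.7, 32.6 and 35.7 CPM on day 7 and 35.3, 35.4 and 36.8 CPM on day 14. These libraries lay below day 0 throughout, and both genes rose on day 14 against day 4, by 1.51 and 0.62 (adjusted p = 2.2e-05 and 0.00243). Crat, the carnitine acetyltransferase, had 223, 246 and 227 CPM on day 0, 48.7, 66.0 and 42.5 CPM on day 1 and 41.9, 41.7 and 37.0 CPM on day 2. Crat then had 47.6, 44.2 and 43.2 CPM on day 4, 50.6, 55.5 and 32.0 CPM on day 7 and 35.0, 35.2 and 34.1 CPM on day 14. Its day 14 libraries lay below those of day 4, with a log2 fold change of -0.37 ± 0.17 that did not pass the test (adjusted p = 0.0746) and was called without day 1 replicate B, day 2 replicate A or day 7 replicate C (lowest adjusted p = 0.0116), without mitochondrially encoded genes (0.0399) and in a fit of the 2 days alone (7.7e-05).

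Most Pex assembly genes fell by day 1 and all by day 2, by less at the median than the oxidation genes. On day 1 against day 0, 10 of 11 were lower, and all 11 were lower on days 2, 4, 7 and 14. Their log2 fold changes were -3.47 to -0.66 on day 4 and -2.53 to -0.31 on day 14. Of all genes, 37.1%, 35.3%, 36.8%, 32.1% and 32.1% were lower on days 1, 2, 4, 7 and 14. Those Pex counts hold under TMM. On day 2, library sizes alone and limma on log2(TPM + 1) each called 10 lower and 1 higher, and on day 7 they called 9 lower, with 0 higher by library sizes and 2 by limma. On day 14, with library sizes alone 9 were lower and 1 higher, and by limma on log2(TPM + 1) 6 were lower and 2, Pex2 and Pex14, higher. On day 4 against day 0 limma on log2(TPM + 1) called 9 lower and 0 higher. The shares of all genes called with library sizes alone or by limma are not given here.

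Pex11a, which promotes peroxisome division, had the largest fall. Its libraries held 77.7, 77.6 and 66.0 CPM on day 0, 26.1, 29.0 and 23.2 CPM on day 1 and 17.5, 13.0 and 15.7 CPM on day 2. Pex11a then had 6.80, 6.08 and 7.08 CPM on day 4, 10.6, 11.4 and 6.41 CPM on day 7 and 12.1, 13.1 and 13.3 CPM on day 14. No later library reached day 0. In log2 terms the change was -3.47 ± 0.19 on day 4 against day 0 (adjusted p = 1.0e-10) and 0.95 ± 0.17 on day 14 against day 4 (adjusted p = 3.3e-04).

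Pex14, a docking protein for import receptors, fell least. Its libraries held 70.7, 68.0 and 71.9 CPM on day 0, 76.2, 76.5 and 74.3 CPM on day 1 and 66.1, 57.0 and 62.8 CPM on day 2. Pex14 then had 43.9, 45.8 and 44.0 CPM on day 4, 53.5, 50.6 and 48.5 CPM on day 7 and 56.2, 57.6 and 55.6 CPM on day 14. The day 1 libraries lay above day 0, with a log2 fold change of 0.11 ± 0.06 that did not pass the test (adjusted p = 0.145, and 0.04997 without day 2 replicate A). It was called higher on day 1 at 0.41 with library sizes alone, 0.48 by limma on log2(TPM + 1) and 0.30 in a fit of the 2 days alone. Day 4 against day 0 gave -0.66 ± 0.06 (adjusted p = 1.4e-07), a call lost by limma on log2(TPM + 1) (adjusted p = 0.916). Day 14 against day 0 gave -0.31 ± 0.06 (adjusted p = 4.0e-04), which turned to 0.25 with library sizes alone and 0.52 by limma on log2(TPM + 1). Pex14 shares 28.3% of its exon bases with the antisense Gm17029.

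Pex19, the carrier of peroxisomal membrane proteins, was the most abundant Pex gene per length on day 0, at 103 TPM. Its libraries held 197, 207 and 189 CPM on day 0, 65.5, 76.7 and 63.5 CPM on day 1 and 80.4, 79.1 and 75.0 CPM on day 2. Pex19 then had 89.6, 95.4 and 89.2 CPM on day 4, 110.5, 103 and 94.2 CPM on day 7 and 108, 107 and 106 CPM on day 14. Its mean was lowest on day 1, and its libraries of day 7 and 14 lay between those of days 1 and 0. Day 14 against day 0 gave -0.88 ± 0.08 (adjusted p = 4.2e-08), which was not called by limma on log2(TPM + 1) (-0.073, adjusted p = 0.295). Pex5, the receptor for most matrix enzymes, had 174, 164 and 158 CPM on day 0, 121, 143 and 109 CPM on day 1 and 82.5, 71.0 and 76.6 CPM on day 2. Pex5 then had 53.6, 56.5 and 52.8 CPM on day 4, 61.6, 56.7 and 51.4 CPM on day 7 and 50.2, 48.2 and 52.5 CPM on day 14. It was the Pex gene with the lowest value on day 14 against day 4, -0.11 ± 0.10 (adjusted p = 0.347). That value turned to 0.072 by limma on log2(TPM + 1) and was called lower in a fit of the 2 days alone (-0.17, adjusted p = 0.0214). On day 1 against day 0 Pex5 was lower by 0.41 (adjusted p = 0.00106). That call was lost with library sizes alone (-0.12, adjusted p = 0.149) and by limma on log2(TPM + 1) (-0.062, adjusted p = 0.523).

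Pex7, the receptor for the other import signal, had a log2 fold change of -1.90 ± 0.10 on day 4 against day 0 and 0.52 ± 0.10 on day 14 against day 4. Pex16 and Pex3, which act with Pex19 at the membrane, had -2.13 ± 0.16 and -1.08 ± 0.10 on day 4 against day 0. The values were -1.32 ± 0.11 for Pex13, a docking protein, -1.51 ± 0.12 for Pex6, an ATPase that recycles receptors, and -0.71 ± 0.07 and -1.43 ± 0.14 for Pex2 and Pex10, subunits of the ubiquitin ligase of the peroxisome membrane. By limma on log2(TPM + 1) the call of Pex2 on day 4 was lost (-0.10, adjusted p = 0.156). On day 14 against day 4, 8 of the 11 were higher and 0 lower (all genes 28.6% and 23.3%), and 5 were higher without day 4 replicate C or day 14 replicate B. The call of Pex6 was lost without any 1 library of days 4 or 14 (adjusted p up to 0.166), that of Pex19 without any of them but day 4 replicate B (up to 0.0979), and that of Pex2 without day 4 replicate C or day 14 replicate B (up to 0.0975). With all libraries, DESeq2 size factors lost the calls of Pex6 (0.0585) and Pex19 (0.0664). Leaving out the filter lost those of Pex6 (0.0624), Pex19 (0.0844) and Pex2 (0.0663). That of Pex6 was also lost without mitochondrially encoded genes (0.0501) and by DESeq2's Wald test (0.0537).

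**Figure D5:**
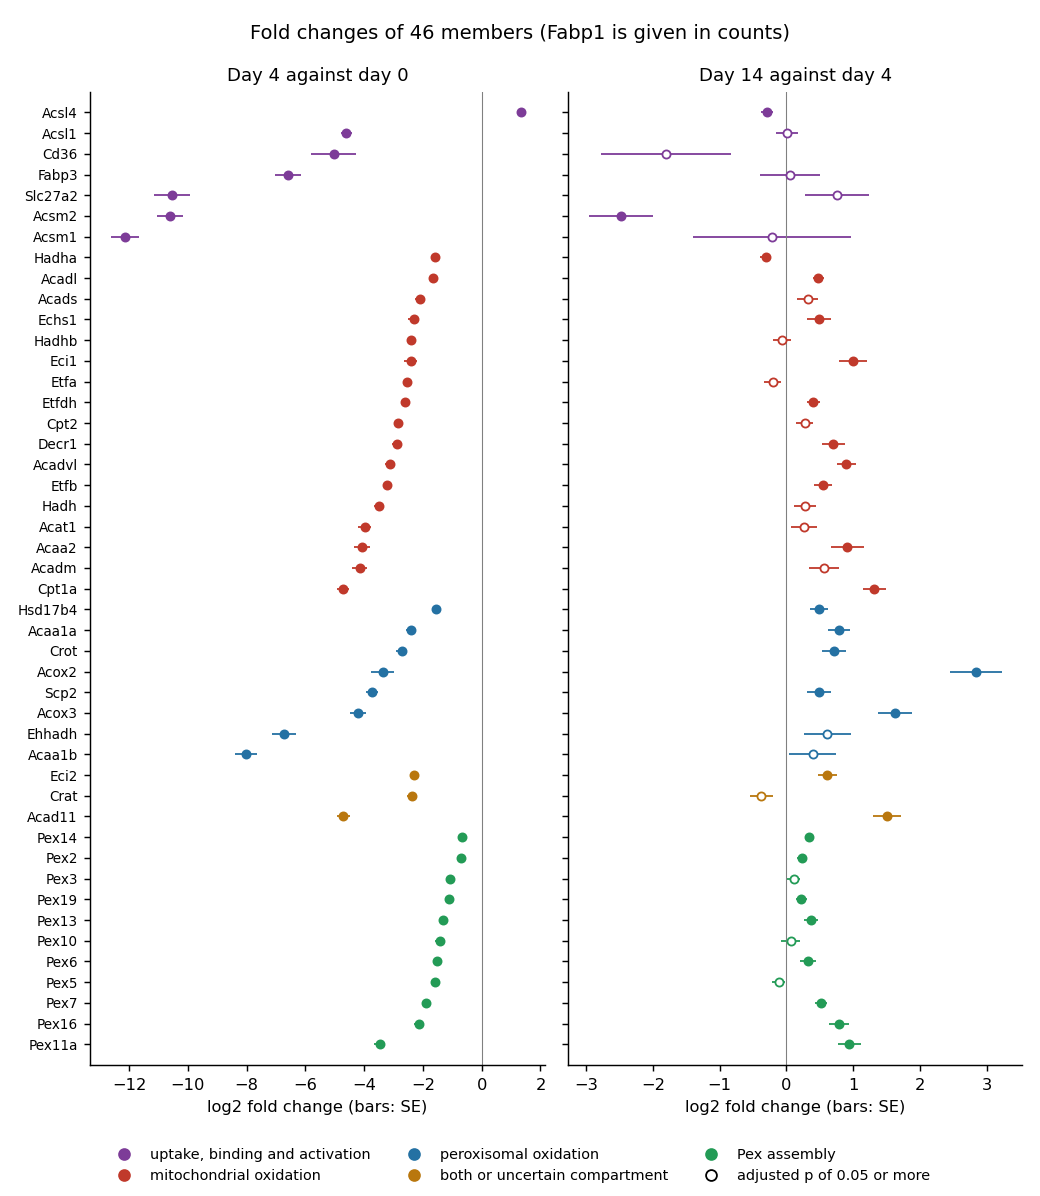
Log2 fold changes with SE of 46 genes for day 4 against day 0 and day 14 against day 4, coloured by role, filled where the adjusted p is under 0.05. Acsl4 is the 1 gene above 0 on day 4 against day 0, and Acox2, Acox3 and Acad11 have the largest rises on day 14 against day 4. On day 14 against day 4, Acsl1 turns below 0 with DESeq2 size factors and Pex5 above 0 under TPM.

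After day 1, lower genes were most numerous between successive days on day 2 against day 1, and higher genes on day 7 against day 4. On day 2 against day 1, 39 of 47 genes were lower and 1 higher (all genes 17.5% and 17%), and on day 4 against day 2, 15 and 6 (22.1% and 19.4%). On day 7 against day 4, 21 were higher and 1 lower (22% and 15.9%), and on day 14 against day 7, 1 and 1 (5.07% and 7.46%). Taking day 14 against day 4 as a whole, 25 were higher and 3, namely Hadha, Acsl4 and Acsm2, lower (28.6% and 23.3% of all genes). The mean CPM was lowest on day 2 in 13 genes, on day 4 in 20, on days 7 and 14 in 6 each and on day 1 in 2. Higher genes on day 4 against day 2 numbered 3 without day 2 replicate C or day 4 replicate A or B, and 10 without day 2 replicate A. Acsl4 was the gene higher on day 2 against day 1 and lower on day 14 against day 7, Acsm2 the gene lower on day 7 against day 4, and Acsl4, Acads, Echs1, Hsd17b4, Pex10 and Pex19 were those higher on day 4 against day 2. Small counts moved with single libraries. On day 2 against day 1, 2 genes were higher without day 1 replicate B, day 7 replicate C or any 1 library of day 14. On day 14 against day 7, 0 were lower without day 14 replicate A, 2 without day 1 replicate C, day 2 replicate A or day 7 replicate A or B, and 3 without day 1 replicate B or day 7 replicate C, while 3 were higher without day 7 replicate B and 2 without day 7 replicate C. Lower genes on day 14 against day 4 numbered 5 without day 7 replicate C.

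Replicate C of day 7 stood apart from A and B. Its mean correlation with the day 4 libraries over all genes was 0.975, against 0.952 and 0.953 for A and B, and 37 of the 47 genes were lower in C than in both A and B, with 6 higher. That count was not made over all genes. The chi-square over degrees of freedom, not limited to the 47 genes, was 140 and 143 for C beside A and B, and 9.55 for A beside B. On day 7 against day 4, 29 of the 47 genes were higher without replicate C and 13 without replicate A, against 21 with all libraries (22% of all genes). The shares of all genes called without these libraries are not given here, so these counts are no result about the 47 genes alone. Which of these libraries is typical of day 7 was not tested.

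Other genes of the same pathways were mostly lower on day 4 as well. A list of 26 other genes linked to mitochondrial fatty acid oxidation also holds some whose products work outside mitochondria. Of these 26, 21 were lower and 3 higher on day 4 against day 0, with a median log2 fold change of -2.93 (all genes 36.8% lower and 38.1% higher, median 0.08). Of 32 other peroxisome genes tested, 29 were lower and 2 higher (median -2.67), and all 6 other Pex genes were lower (median -1.26). For day 14 against day 4 the counts were 10 higher and 5 lower, 9 and 4, and 3 and 0, where 28.6% of all genes were higher and 23.3% lower. The share of other peroxisome genes called higher was near that of all genes. Slc22a5, the carnitine transporter, averaged 11.3 ± 0.289 CPM on day 4, against 756 ± 134 CPM on day 0, and Acad12 2.62 ± 0.475 CPM on day 4, against 59.0 ± 2.24 CPM on day 0. The long-chain synthetases Acsl5 and Acsl3 rose, with 303 ± 4.55 CPM on day 4, against 101 ± 16.9 CPM on day 0 for Acsl5 and 123 ± 9.26 CPM on day 4, against 74.9 ± 2.71 CPM on day 0 for Acsl3.

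In the peroxisome, Pecr, a reductase of enoyl-CoA, averaged 7.93 ± 0.270 CPM on day 4, against 432 ± 34.6 CPM on day 0, and Dao, the D-amino acid oxidase, 0.122 ± 0.106 CPM on day 4, against 209 ± 5.55 CPM on day 0. Agps, which makes the ether bond of plasmalogen precursors, rose, with 298 ± 19.3 CPM on day 4, against 94.7 ± 3.66 CPM on day 0 (log2 fold change 1.65 ± 0.07, adjusted p = 1.1e-11). Uox was also called higher, at 0.405 ± 0.251 CPM on day 4, with 0 counts on day 0.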

How the data were processed

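For 18 libraries the authors deposited whole-number estimated counts for every gene in one table and TPM values in another. Per the submitters' processing notes, cutadapt 2.3, FastQC 0.11.8, STAR 2.7.8a, RSEM 1.3.3 and the GRCm38 genome were used. No source used here gives the annotation release or says whether counting used strand, and 19 of the 47 genes share exon bases with another gene in GENCODE vM21. Of 55426 entries, 5 reporter transgenes with 0 counts were left out. Groups follow the labels' day and letter.

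The authors' deposited estimated counts were turned into CPM after TMM scaling of library sizes (log2 CPM with a prior count of 2), genes were filtered with filterByExpr, and the 10 comparisons of days were tested in edgeR by the quasi-likelihood F test, with all 6 day means in a single model, adjusted by Benjamini-Hochberg over 18754 genes and called under 0.05. An SE was obtained by dividing the fold change (log2) by the square root of its F. Totals of 23799559 to 37579097 counts set the precision, and intervals and floors cover counting error only. Libraries of a day all differed by more than sampling noise (chi-square over degrees of freedom, at least 6.59). Since the labels name nothing that libraries of a letter share and their deviations correlated above 0.1 in 8 of 45 pairs, no block was used. 

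The genes, roles, lists and tests were chosen with earlier results of these data known. Values in every library are given for the gene of highest TPM on day 0 and those of lowest and highest fold change (day 4 against day 0, day 14 against day 4) in each role, for genes called against their role, and for Acsl1, Acsl4, Acaa1a, Acaa1b, Cpt1a and Cpt2. Of the other pathway genes, those of smallest adjusted p per list and direction are named, except for a few that are not reported here. The alternatives changed the scaling (library sizes alone, size factors from DESeq2, leaving out mitochondrially encoded genes), the filter (none), the model (a replicate-letter block, or a fit of the 2 days alone), the test (DESeq2's Wald test, or limma-trend on log2(TPM + 1) for genes with a mean TPM of 0.5 or more, also unfiltered and with 0.1 added) or the libraries (each left out in turn). Promoters were matched by symbol. Software was R 4.3.3 with edgeR 4.0.16, DESeq2 1.42.0 and limma 3.58.1, and matplotlib 3.10.9 under Python 3.11.15.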

Additional observations from a re-analysis of the deposited data

How the results depend on the processing

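With library sizes alone, genes called higher were 2 on day 1 (1 of them Pex), 2 on day 2 and 2 on day 14 (1 Pex) against day 0 and 2 on day 2 against day 1, and on day 14 against day 7 they were 4 higher and 2 lower. Without mitochondrially encoded genes and, equally, with the replicate block, 2 were higher on day 2 against day 1 and 2 lower on day 14 against day 7, and the block changed no other of these counts by over 1.5 times. It called Crat lower on day 14 against day 4 (-0.37, adjusted p = 0.0357). The letters were not taken to pair the samples, since same-letter correlations ran from -0.17 to 0.42 and passed 0.1 in 8 of 45 pairs (all 3 letters for days 2 and 4), although 12 of 18 libraries were closest to their own letter, a hint from the data and not from the design. Without the filter, 5 Pex genes were higher on day 14 against day 4. Fitting only the 2 days compared gave 1 higher (Pex) on day 1 against day 0, 12 on day 7 against day 4, 0 higher and 0 lower on day 14 against day 7, and 14 mitochondrial genes higher and 7 genes lower, 2 of them mitochondrial and 1 Pex, on day 14 against day 4. The DESeq2 Wald test gave 3 higher and 3 lower on day 14 against day 7. By limma on log2(TPM + 1), log2(TPM + 0.1) and without its filter alike, 2 were higher on day 1 (1 Pex), 2 on day 2, 3 on day 7 and 3 on day 14 (2 Pex, with 6 Pex lower) against day 0, 2 on day 2 against day 1, while 5, 5 and 4 were higher and 0 lower on day 14 against day 7. On day 14 against day 4 limma called 1, 1 and 0 genes lower, 0 of them mitochondrial, and 14 mitochondrial genes higher with its filter. Median log2 fold changes less that of all genes were, by limma on log2(TPM + 1), -2.73, -3.38 and -1.30 (mitochondrial, peroxisomal, Pex) on day 4 and -2.40, -2.24 and -1.11 on day 14 against day 0, and 0.52 (mitochondrial) on day 14 against day 4. They were -2.56, -3.21, -1.13, -2.26, -2.10, -0.97 and 0.54 without the filter, and 0.49 (mitochondrial) and 0.67 (peroxisomal) on day 14 against day 4 with log2(TPM + 0.1). The cause of these shifts was not tested, and the shares of all genes called under these settings are not given here.

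The direction of some genes turned. Acsl1 on day 14 against day 4 was -0.020 with DESeq2 size factors and the Wald test, -0.025 without mitochondrially encoded genes, -0.042 in the fit of 2 days and -0.065 to 0.061 with a library left out. Acsl4 on day 1 against day 0 was 0.26 with library sizes alone, 0.14 in the fit of 2 days and 0.30, 0.31 and 0.30 by limma in the order above. On day 14 against day 0, library sizes alone gave 0.033 for Acox2, 0.086 for Pex2 and 0.25 for Pex14, and limma 0.092, 0.093 and 0.092 for Acox2, 0.31, 0.32 and 0.31 for Pex2 and 0.52, 0.53 and 0.52 for Pex14. Pex5 on day 14 against day 4 was 0.072, 0.074 and 0.072 by limma. Leaving out each library gave 0 to 1 higher on day 1 against day 0 (0 to 1 Pex), 1 to 2 on day 2 against day 1, 3 to 10 on day 4 against day 2, 13 to 29 higher and 1 to 2 lower on day 7 against day 4, 1 to 3 higher and 0 to 3 lower on day 14 against day 7, and 2 to 5 lower and 5 to 8 Pex higher on day 14 against day 4. The medians less that of all genes ran from -3.00 to -2.85 on day 4 and -2.63 to -2.56 on day 14 against day 0 for mitochondrial genes, and for peroxisomal genes from -2.56 to -2.39 on day 14 against day 0 and 0.54 to 0.70 on day 14 against day 4. The other counts and medians, and the ratios of Acsl4 to Acsl1 and of Acaa1b to Acaa1a, kept their direction and moved by at most 1.5 times (counts) or by less than 1 SD between libraries (medians and ratios). Depth limits Fabp1, Acsm1 and Acsm2 from day 4 or 7 on, where few counts were left.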

Other observations

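Some genes of these pathways outside the 47 stood out and were chosen after their values were seen. Cpt1c, a carnitine palmitoyltransferase paralog best known from neurons, was higher in culture, at 10.8 ± 0.533 CPM on day 14, against 0.473 ± 0.166 CPM on day 0 (log2 fold change 4.51 ± 0.39 (SE), adjusted p = 3.8e-08, edgeR's quasi-likelihood test), while Cpt1a was lower. Slc25a20, the carnitine carrier between Cpt1a and Cpt2, rose on day 14 against day 4, with 38.9 ± 1.74 CPM on day 14, against 19.3 ± 0.346 CPM on day 4 (log2 fold change 1.01 ± 0.17, adjusted p = 1.8e-04). Cat, the catalase that clears the peroxide of peroxisomal oxidases, averaged 179 ± 3.94 CPM on day 14, against 1584 ± 111 CPM on day 0.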
